A study of Rattus norvegicus with 16 samples.

Results

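The calcium store of the heart muscle cell is run by a small set of proteins, and the expression of 10 of their genes is described here in right ventricular wall. The 10 genes are Atp2a2, Pln, Sln, S100a1, Ryr2, Trdn, Jph2, Casq2, Hrc and Slc8a1. They were taken by name, and each was measured by 1 probe set, so that 10 of the 17245 genes tested are described. The tissue was right ventricular wall from Wistar rats, all male and weighing 160 to 180 g, after a sham operation or after banding of the pulmonary artery, which loads this ventricle with pressure. The 16 arrays fall into 5 labelled RVF+, 4 labelled RVF and 7 labelled CON, the controls. The labels do not spell out RVF+ and RVF, do not say which operation each sample had, and give no age; the stated subject is failure of the right ventricle and its clinical symptoms under chronic pressure load. Whether each array is a different animal is not stated, and p-values therefore reflect only the spread between arrays, possibly a technical one. The submitters number the arrays as RVF+ 8 to 12, RVF 13 to 16 and CON 1 to 7, and these numbers are used here.

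With each heartbeat, calcium that enters through the L-type channel opens the ryanodine receptor of the sarcoplasmic reticulum, and the stored calcium that is released starts contraction. The pump SERCA then returns most of it to the store, under the restraint of phospholamban and sarcolipin, and the sodium-calcium exchanger removes the rest from the cell, which together allow the muscle to relax. Slower calcium re-uptake with less pump relative to phospholamban or to the exchanger is a well-known trait of failing left ventricles.

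In RVF+ and in RVF ventricles most of these genes were lower than in CON. In counts, a gene fell or rose where its adjusted p was under 0.05 (limma, adjusted over all genes). In RVF+, 9 of the 10 fell and 0 rose, and of all genes tested 13.6% fell. By sign alone 10 of the 10 were lower in RVF+ and 9 in RVF, as were 9021 and 8923 of the 17245 genes. In RVF, 6 of the 10 fell and 0 rose, against 8.29% of all genes that fell. When CON 2, RVF 14 or RVF 16 was left out, 3 of the 10 fell. The share of all genes in those fits is not given, so a general loss of calls cannot be told apart. Hrc was 2.37-fold lower in RVF+ and 2.00-fold lower in RVF, Trdn 1.76-fold and 1.83-fold lower, S100a1 1.71-fold and 1.74-fold lower, and the pump gene Atp2a2 1.42-fold and 1.28-fold lower. Casq2 and Slc8a1 had the smallest differences, with log2 differences of -0.0015 and 0.025 in RVF. The median log2 difference of the 10 genes was -0.62 in RVF+ and -0.35 in RVF, beside a median over all genes of -0.012 and -0.0087. Both comparisons share the CON arrays.

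Some features of the samples move with these results. RVF+ 8 stood apart. Over all genes its distance to the mean CON profile (root mean square, log2) was 0.711, that of every other RVF+ or RVF array lay between 0.326 and 0.448, and it was the lowest RVF+ array for 8 of the 10 genes. Without it 7 of the 10 genes fell in RVF+ (12.0% of all genes fell) and 7 in RVF (11.2% of all genes), because the groups share 1 estimate of the spread. Second, cardiomyocyte markers were lower on average. The mean log2 level of 8 ventricular cardiomyocyte markers was 11.23 to 11.94 in RVF+ and 11.85 to 11.97 in RVF, against 12.07 to 12.16 in CON. In RVF+ 3 of the 8 were called lower (Myh6, Ttn and Tnni3) and in RVF 0, where 13.6% and 8.29% of all genes fell. Myh6 differed most of the 8, by -1.34 in RVF+ and -0.78 in RVF. Without RVF+ 8, 2 of the 8 were lower in RVF, Myh6 and Tnni3 (adjusted p = 1.43e-05 and 0.000609). Their summed intensity was 26800 to 37800 in RVF+ and 35700 to 37800 in RVF, against 40600 to 43000 in CON. Over the same arrays the summed intensity of 7 macrophage markers was 1710 to 4230 in RVF+ and 1370 to 2050 in RVF, against 860 to 1280 in CON, and that of 7 fibroblast markers 9800 to 11200 in RVF+ and 9580 to 11100 in RVF, against 7910 to 9240 in CON. All 7 macrophage markers rose in RVF+ and 5 in RVF, and 5 of the fibroblast markers rose in RVF+ and 4 in RVF, where 14.1% of all genes rose in RVF+ and 8.86% in RVF; their part in the results was not tested. In bulk tissue fewer cells of a type, less RNA per cell and lower expression of the marker genes themselves cannot be told apart. Differences relative to the cardiomyocyte markers are therefore given further on.

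The starts of 8 of the 10 genes were listed in RefSeq on the GRCr8 assembly, and 3 are shown because the genes they belong to carry the comparison of pump, release channel and inhibitor. Each runs from 250 bases before to 50 bases after an annotated start, 5′ to 3′ on the + strand, at chr12:39733269-39733568 for Atp2a2, chr17:63081277-63081576 for Ryr2 and chr20:33172244-33172543 for Pln. The Pln gene is listed from 33166512, upstream of this window, so the Pln start shown lies inside the gene. The windows of Slc8a1, Jph2 and Trdn, counted below but not shown, also lie inside their listed genes. For Slc8a1 the window begins at 19023309 and the gene at 18975498. Motif counts for these genes and for Pln therefore concern starts inside the gene. Capitals mark the Sp1 box GGGCGG, the E-box CAGCTG and the nuclear receptor half-site AGGTCA, read on both strands.
Atp2a2: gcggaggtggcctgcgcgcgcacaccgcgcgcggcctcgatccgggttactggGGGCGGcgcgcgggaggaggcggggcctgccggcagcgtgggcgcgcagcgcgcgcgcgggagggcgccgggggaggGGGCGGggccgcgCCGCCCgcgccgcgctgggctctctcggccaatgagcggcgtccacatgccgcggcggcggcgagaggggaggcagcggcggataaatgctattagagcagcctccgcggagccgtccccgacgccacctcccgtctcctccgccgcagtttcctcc
Ryr2: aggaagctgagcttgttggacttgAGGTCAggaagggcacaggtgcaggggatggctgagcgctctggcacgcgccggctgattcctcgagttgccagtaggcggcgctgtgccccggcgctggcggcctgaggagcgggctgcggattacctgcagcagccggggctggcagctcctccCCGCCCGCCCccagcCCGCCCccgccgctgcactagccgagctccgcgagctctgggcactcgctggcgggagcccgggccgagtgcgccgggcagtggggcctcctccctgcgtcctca
Pln: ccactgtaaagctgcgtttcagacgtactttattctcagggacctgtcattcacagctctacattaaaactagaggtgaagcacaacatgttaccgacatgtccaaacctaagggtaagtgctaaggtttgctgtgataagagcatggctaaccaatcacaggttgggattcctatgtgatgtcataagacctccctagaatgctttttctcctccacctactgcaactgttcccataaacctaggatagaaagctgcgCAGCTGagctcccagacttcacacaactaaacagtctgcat
The Atp2a2 and Ryr2 starts were rich in G and C (79.0% and 73.0%, against a median of 52.3% over 27457 rat promoters), while that of Pln was not (45.0%). Atp2a2 and Ryr2 each held 3 Sp1 boxes, with 2 of those in Ryr2 overlapping, and no other start among the 8 held one. A share of 34.9% of all promoters holds this motif, so 2 of 8 is no more than that background. Pln held an E-box just after the start shown (15.1% of all promoters hold one) and Ryr2 a nuclear receptor half-site (15.7%). TATAAA (14.3% of all promoters), AGATAA (11.3%), CATTCC (13.9%), the MEF2 site (0.605%) and the CArG box (1.64%) were in none of the 8 windows.

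Atp2a2 (probe set 10758555) encodes SERCA2, the pump that refills the sarcoplasmic reticulum. Its log2 level was 11.42, 12.07, 12.03, 12.22 and 12.06 in RVF+ 8 to 12 and 12.06, 12.12, 12.13 and 12.13 in RVF 13 to 16, and it ran from 12.42 to 12.52 in CON with a median of 12.47. All RVF+ and all RVF arrays thus lay below every CON array, and the 4 RVF arrays lay close together. The fall was -0.51 ± 0.10 in RVF+ (log2 difference ± SE, here and below, adjusted p = 0.00125) and -0.36 ± 0.11 in RVF (adjusted p = 0.0312). Without RVF+ 8 the 2 falls were -0.37 ± 0.06 and -0.36 ± 0.06 (adjusted p = 0.000172 and 0.000235). The call in RVF ended when any 1 RVF array, CON 2 or CON 3 was left out (adjusted p from 0.0504 without CON 3 to 0.0868 without RVF 13), with differences of -0.34 to -0.36.

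Pln (probe set 10830174) encodes phospholamban, which holds the pump back until it is phosphorylated. It read 12.00, 12.56, 12.58, 12.62 and 12.53 in RVF+ 8 to 12 and 12.48, 12.55, 12.58 and 12.54 in RVF 13 to 16, against 12.68 to 12.77 in CON (median 12.74). Here too no RVF+ or RVF array reached the CON range, though the distance was small. The difference was -0.27 ± 0.09 in RVF+ (1.21-fold lower, adjusted p = 0.0307) and -0.19 ± 0.10 in RVF (1.14-fold lower, adjusted p = 0.198). Without RVF+ 8 the RVF+ difference was -0.15 ± 0.06 (adjusted p = 0.0499) and the RVF difference passed (adjusted p = 0.0181), as it did in a fit of RVF and CON only (adjusted p = 0.0216). The RVF+ call ended without CON 7 (-0.26, adjusted p = 0.0517) and in a fit of RVF+ and CON only (adjusted p = 0.0582).

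Sln (probe set 10910047) encodes sarcolipin, a second small inhibitor of the pump that is known as an atrial protein in the rodent heart. Its levels were scattered, at 6.70, 4.70, 6.09, 7.66 and 7.13 in RVF+ 8 to 12 and 5.48, 5.80, 7.05 and 6.03 in RVF 13 to 16, against 6.45 to 10.04 in CON (median 8.08). Only 2 of 5 RVF+ and 3 of 4 RVF arrays lay below all CON arrays, and the SD was 1.14 in RVF+, 0.68 in RVF and 1.24 in CON. The difference was -1.49 ± 0.56 in RVF+, which did not pass (adjusted p = 0.0554), and -1.86 ± 0.60 in RVF, which did (adjusted p = 0.0399). Without CON 3, CON 6 or RVF+ 11 the RVF+ difference passed (-1.74, -1.74 and -1.79, adjusted p = 0.0270, 0.0276 and 0.0277), as it did with quantile normalization, centring, array weights or the brighter genes only (adjusted p from 0.0359 to 0.04995). The RVF call ended without CON 1, 2, 4, 5 or 7, without RVF 13, 14 or 16 (differences from -1.51 to -1.89, adjusted p from 0.0540 to 0.127) and with robust moderation (adjusted p = 0.0526).

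Atrial myocardium in the samples could carry Sln, and its markers were read beside it. Myl7, the atrial light chain, was 6.09, 6.29, 6.87, 6.20 and 8.24 in RVF+ 8 to 12 and 7.26, 5.86, 6.53 and 5.67 in RVF 13 to 16, against 6.22 to 10.79 in CON, a difference of -1.52 ± 0.60 in RVF+ (adjusted p = 0.0661) and -1.93 ± 0.64 in RVF (adjusted p = 0.0450). Bmp10, an atrial growth factor, stayed between 3.22 and 3.68 in all arrays, low on this scale. Within CON, Sln and Myl7 did not follow each other detectably (Pearson r = 0.204, exact permutation p = 0.678, Spearman rho = 0.250, exact permutation p = 0.595, n = 7, both adjusted p = 0.678, and r = 0.104 without CON 4 and CON 5, the arrays farthest from the Myl7 median). The highest Sln was in CON 7 and the highest Myl7 in CON 5. The summed intensity of all 5 measured atrial markers was 548 to 1050 in RVF+ and 743 to 936 in RVF, against 1520 to 3010 in CON. Of these 5 markers 2 rose and 1 fell in RVF+ (14.1% and 13.6% of all genes). The 2 that rose were Gja5 (0.76 ± 0.16) and Nr2f2 (0.42 ± 0.13). In RVF 0 rose and 2 fell (8.86% and 8.29% of all genes). The atrial sum rests largely on Kcnj3, a potassium channel gene that was the brightest of the 5 markers in every array but CON 5. Its level was 9.98 to 10.53 in CON. Kcnj3 fell by 1.40 ± 0.20 in RVF+ (adjusted p = 7.71e-05) and by 1.12 ± 0.22 in RVF (adjusted p = 0.00161). The part of atrial tissue in the Sln result was not tested.

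S100a1 (probe set 10824689) encodes a calcium-binding protein that promotes both pump and release channel activity. It was 7.94, 9.09, 8.72, 9.05 and 9.43 in RVF+ 8 to 12 and 8.82, 8.95, 8.97 and 8.54 in RVF 13 to 16, against 9.37 to 9.84 in CON (median 9.65). All RVF arrays were below CON, and of the RVF+ arrays RVF+ 12 overlapped it. S100a1 fell by 0.77 ± 0.18 in RVF+ (adjusted p = 0.00375) and by 0.80 ± 0.19 in RVF (adjusted p = 0.00809).

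**Figure D1:**
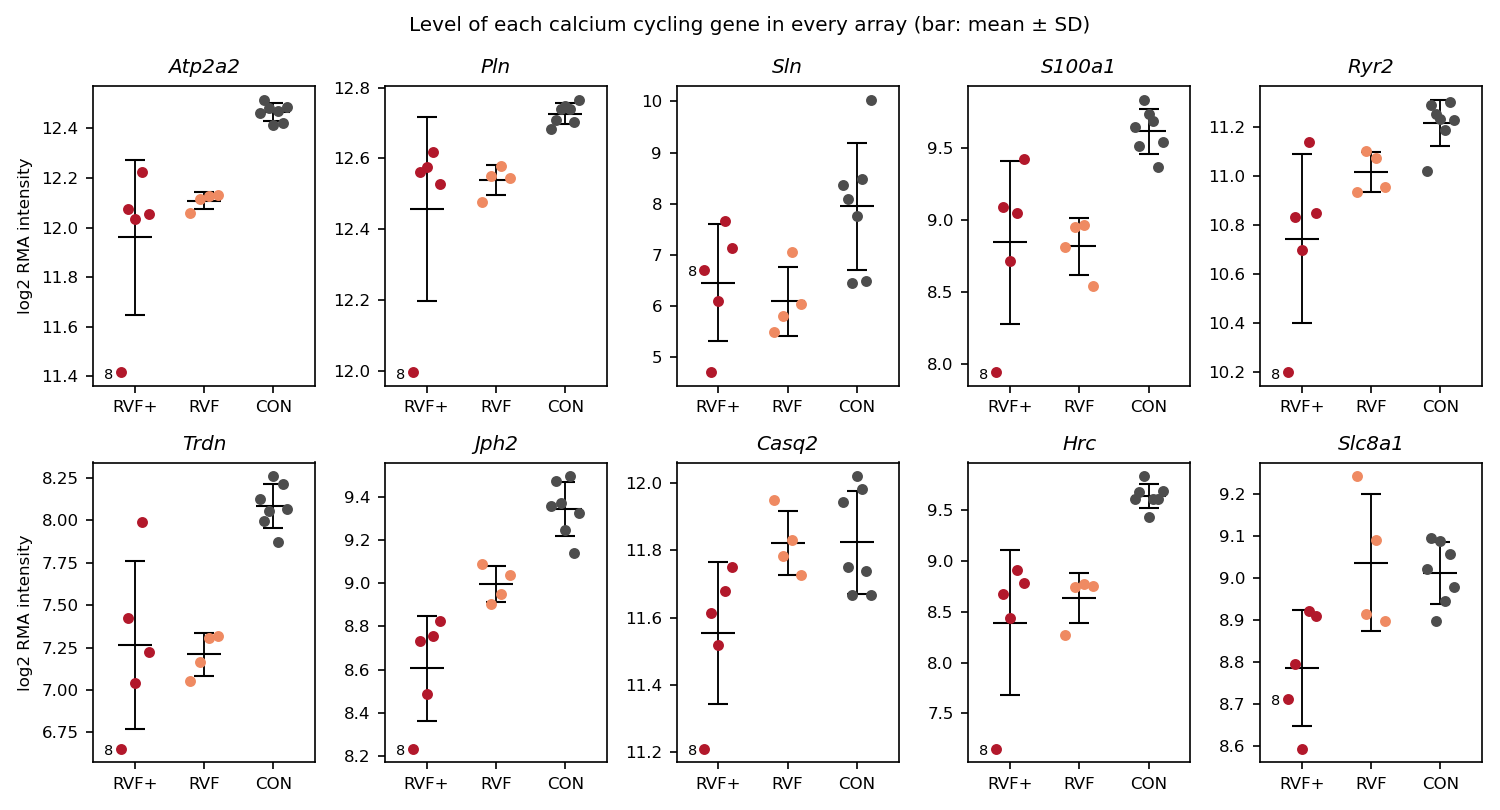
Log2 RMA intensity of the 10 genes in every array, with RVF+ (5 arrays), RVF (4) and CON (7) from left to right and the mean ± SD as bars. Array RVF+ 8, marked by its number, is the lowest RVF+ array for 8 genes. The Atp2a2, Pln, Jph2 and Hrc panels show no overlap of RVF+ with CON, and each panel has its own axis.

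Ryr2 (probe set 10795796) encodes the ryanodine receptor, the release channel itself. Its log2 level was 10.20, 10.84, 10.70, 11.14 and 10.85 in RVF+ 8 to 12 and 10.94, 11.10, 11.07 and 10.96 in RVF 13 to 16, against 11.02 to 11.30 in CON (median 11.24). It fell by 0.47 ± 0.11 in RVF+ (adjusted p = 0.00488, 4 of 5 arrays below all CON arrays). In RVF it had -0.20 ± 0.12 and did not pass (adjusted p = 0.299, 2 of 4 below), while a fit of RVF and CON only placed it just past the threshold (adjusted p = 0.0490).

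Trdn (probe set 10717359) encodes triadin, which ties calsequestrin to the release channel. It was 6.65, 7.42, 7.04, 7.99 and 7.22 in RVF+ 8 to 12 and 7.05, 7.16, 7.31 and 7.32 in RVF 13 to 16, against 7.87 to 8.26 in CON (median 8.07). RVF+ 11 alone of the RVF+ and RVF arrays reached the CON range. The fall was -0.82 ± 0.16 in RVF+ (adjusted p = 0.000830) and -0.87 ± 0.17 in RVF (adjusted p = 0.00147).

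Jph2 (probe set 10851486) encodes junctophilin, which holds the sarcoplasmic reticulum against the T-tubule so that channel and receptor face each other. It was 8.23, 8.73, 8.49, 8.75 and 8.82 in RVF+ 8 to 12 and 9.09, 8.90, 8.95 and 9.04 in RVF 13 to 16, against 9.14 to 9.50 in CON (median 9.36). The 3 groups did not overlap, RVF lying between RVF+ and CON. The fall was -0.74 ± 0.10 in RVF+ (1.67-fold, adjusted p = 2.98e-05) and -0.35 ± 0.10 in RVF (1.27-fold, adjusted p = 0.0268). The RVF call ended without CON 2, CON 5, RVF 14, RVF 15 or RVF 16 (differences from -0.32 to -0.36, adjusted p from 0.0505 to 0.0846).

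Casq2 (probe set 10817881) and Hrc (probe set 10706792) encode the calcium-binding proteins of the store's lumen, calsequestrin and the histidine-rich calcium-binding protein. Casq2 was 11.21, 11.61, 11.52, 11.68 and 11.75 in RVF+ 8 to 12 and 11.95, 11.78, 11.83 and 11.73 in RVF 13 to 16, against 11.67 to 12.02 in CON (median 11.75). The RVF arrays lay inside the CON range, with a difference of -0.0015 ± 0.10 (95% interval -0.22 to 0.21). In RVF+ Casq2 fell by 0.27 ± 0.10 (1.21-fold, adjusted p = 0.0441), with 3 of 5 arrays below all CON arrays. This call ended without any 1 of CON 1, 2, 4 or 5 or RVF+ 8, 9 or 10 (differences from -0.18 to -0.28, adjusted p from 0.0523 to 0.132), and with quantile normalization, array weights or RVF+ and CON only (adjusted p = 0.0873, 0.101 and 0.0709).

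Hrc had larger differences. It was 7.15, 8.67, 8.44, 8.91 and 8.78 in RVF+ 8 to 12 and 8.27, 8.75, 8.77 and 8.76 in RVF 13 to 16, against 9.43 to 9.83 in CON (median 9.61). All RVF+ and RVF arrays lay well below the lowest CON array. The fall was -1.25 ± 0.22 in RVF+ (adjusted p = 0.000397). In RVF Hrc fell by 1.00 ± 0.23 (adjusted p = 0.00648), and without RVF+ 8 the difference was -0.94 ± 0.11 in RVF+ (adjusted p = 6.87e-06).

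Slc8a1 (probe set 10888110) encodes the sodium-calcium exchanger of the cell membrane. It was 8.71, 8.80, 8.59, 8.92 and 8.91 in RVF+ 8 to 12 and 9.24, 8.92, 9.09 and 8.90 in RVF 13 to 16, against 8.90 to 9.10 in CON (median 9.02). RVF 13 had the highest level of all arrays, and RVF as a whole differed from CON by 0.025 ± 0.084 (95% interval -0.15 to 0.20, adjusted p = 0.880). In RVF+ the difference was -0.23 ± 0.08 (1.17-fold lower, adjusted p = 0.0396). That call ended without any 1 of CON 1, 2, 4, 6 or 7 or RVF+ 8, 9 or 10 (differences from -0.18 to -0.23, adjusted p from 0.0525 to 0.115), and with array weights (adjusted p = 0.0607).

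Of the 10 genes, 4 did not overlap between RVF+ and CON, all lower (Atp2a2, Pln, Jph2 and Hrc, against 7.63% of all genes), and 6 did not overlap between RVF and CON, all lower (the same 4 with S100a1 and Trdn, against 9.00% of all genes).

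**Figure D2:**
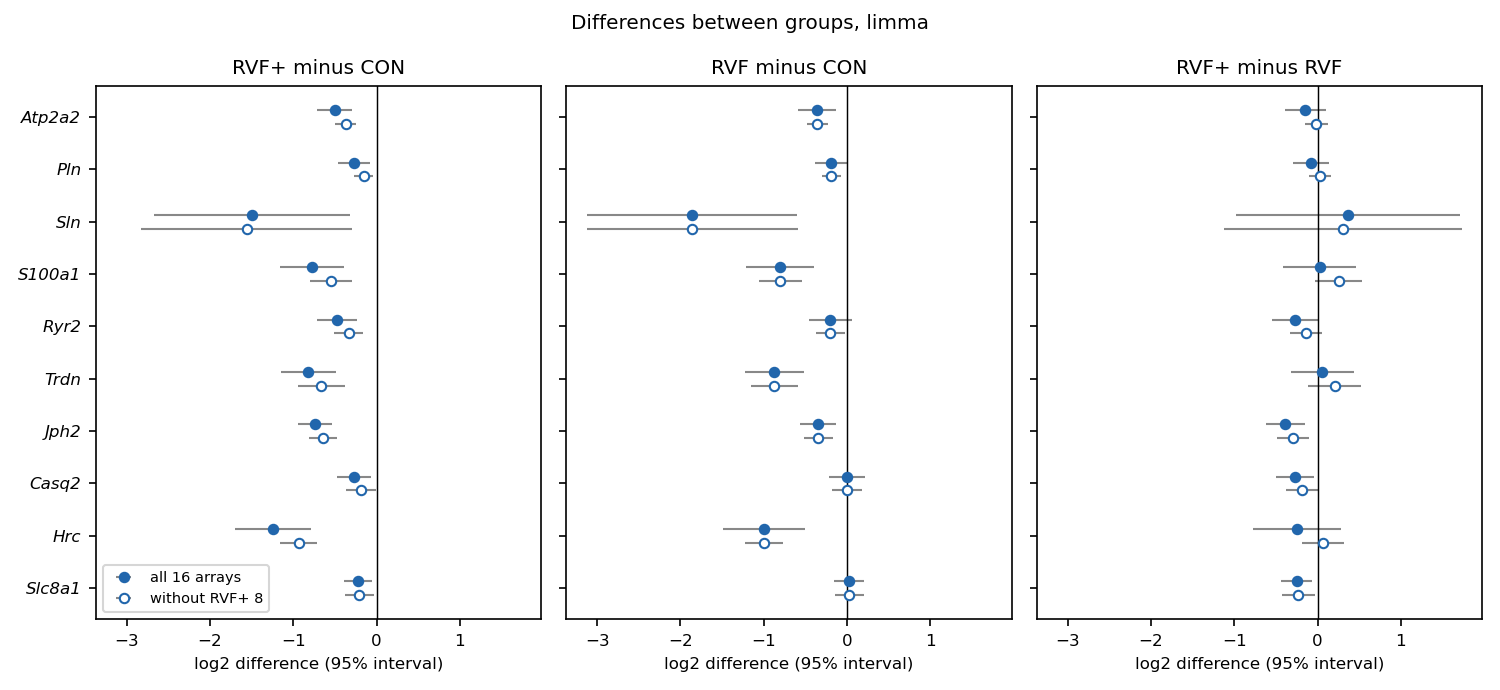
Log2 difference with its 95% interval for the 10 genes in RVF+ minus CON, RVF minus CON and RVF+ minus RVF, from limma on all 16 arrays (filled) and without RVF+ 8 (open). On all 16 arrays Hrc, Trdn, S100a1 and Sln lie farthest below 0 in the first and second panels, and Casq2 and Slc8a1 lie near 0 in RVF minus CON.

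The balance of pump to inhibitor was read within each array, as the log2 level of Atp2a2 minus that of Pln. Its absolute value depends on the probe sets, so it was compared only between arrays. Both probe sets were among the brightest, at percentile 99.9 (Atp2a2) and 100 (Pln) of mean level over all genes. How linear the signal is at that level was not tested. The balance was -0.58, -0.49, -0.54, -0.40 and -0.47 in RVF+ 8 to 12 and -0.42, -0.43, -0.45 and -0.42 in RVF 13 to 16, against -0.33 to -0.19 in CON (median -0.27). All 9 RVF+ and RVF arrays lay below all CON arrays. The means were -0.50 ± 0.07 in RVF+ (SD, n = 5) and -0.43 ± 0.02 in RVF (SD, n = 4), against -0.26 ± 0.05 in CON (SD, n = 7). The balance was thus lower by a log2 difference of -0.23 in RVF+, a 1.18-fold shift (two-sided exact permutation p = 0.00126 over 792 splits), and by -0.17 in RVF, a 1.12-fold shift (exact permutation p = 0.00303 over 330 splits), each the smallest p its design allows and each 0.00606 when adjusted over the 6 balance tests. RVF+ and RVF differed by -0.067 (exact permutation p = 0.103, adjusted p = 0.124, 4 of 5 RVF+ arrays below all RVF arrays). Without RVF+ 11 that difference was -0.092 with 4 of 4 arrays below, and passed (exact permutation adjusted p = 0.0343).

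Pump to exchanger was read in the same way. Atp2a2 minus Slc8a1 was 2.70, 3.28, 3.44, 3.30 and 3.14 in RVF+ 8 to 12 and 2.82, 3.20, 3.04 and 3.23 in RVF 13 to 16, against 3.33 to 3.59 in CON (median 3.44). All RVF arrays and all RVF+ arrays but RVF+ 10 lay below CON. The means were 3.17 ± 0.28 in RVF+ (SD, n = 5) and 3.07 ± 0.19 in RVF (SD, n = 4), against 3.45 ± 0.09 in CON (SD, n = 7). The difference was -0.28 in RVF+ (exact permutation p = 0.00884, adjusted p = 0.0133) and -0.38 in RVF (exact permutation p = 0.00303, adjusted p = 0.00606). Without RVF+ 8 the RVF+ difference was -0.16 (exact permutation adjusted p = 0.0455). RVF+ and RVF differed by 0.10 (exact permutation p = 0.548, adjusted p = 0.548). A within-array difference shows unequal change of a pair of genes, and in RVF the Slc8a1 level was close to CON while in RVF+ both genes were lower.

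**Figure D3:**
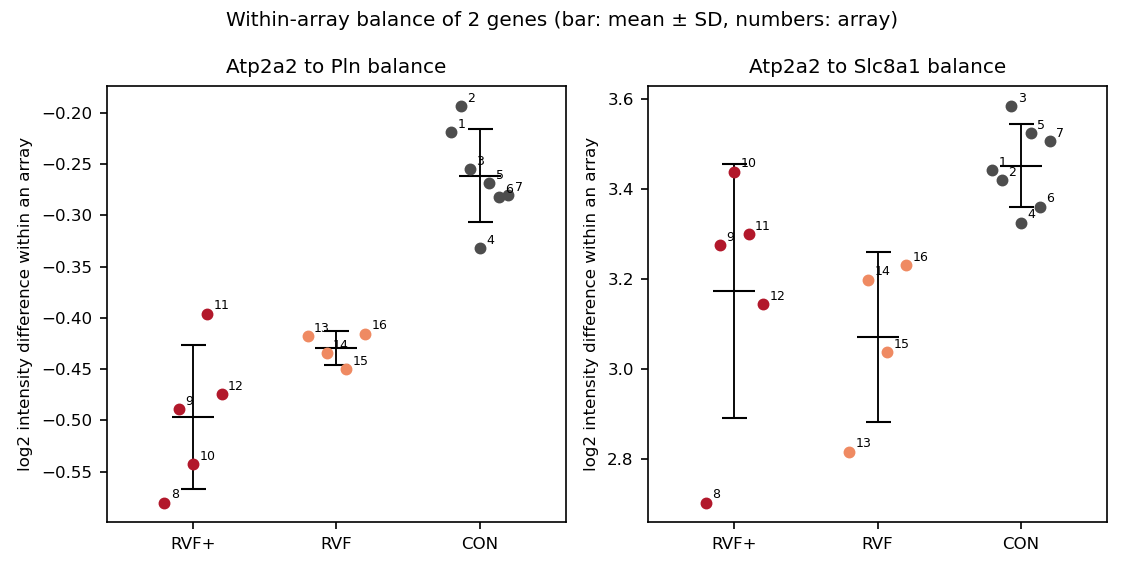
Log2 intensity of Atp2a2 minus that of Pln (left) and of Slc8a1 (right) within each array, for RVF+, RVF and CON from left to right, with the array number beside each point and the mean ± SD as bars. In the Pln panel all 9 RVF+ and RVF arrays lie below the 7 CON arrays, and in the Slc8a1 panel RVF+ 10 alone reaches the CON range.

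RVF+ and RVF were then set against each other. By limma 0 of the 10 genes passed, as did 0 of all genes (0%), while 3 of the 10 had an unadjusted p under 0.05, against 7.20% of all genes. These were Jph2 (-0.39 ± 0.11, unadjusted p = 0.00259, adjusted p = 0.403), Slc8a1 (-0.25 ± 0.09, unadjusted p = 0.0124, adjusted p = 0.552) and Casq2 (-0.27 ± 0.11, unadjusted p = 0.0255, adjusted p = 0.622). Without RVF+ 8 their differences were -0.30, -0.23 and -0.18. In that fit 2 of the 10 genes had an unadjusted p under 0.05, as did 1365 of all 17245 genes. Jph2 was the only one of the 10 whose RVF+ arrays lay wholly below the RVF arrays (1.15% of all genes did). For the other 7 genes the differences ran from -0.27 for Ryr2 to 0.37 for Sln, and these moved with single arrays. Without RVF+ 8 Ryr2 had -0.14 and Hrc 0.064 in place of -0.25, and Sln ran from 0.065 without RVF+ 11 to 0.80 without RVF+ 9. The 95% interval was -0.39 to 0.10 for Atp2a2, -0.30 to 0.13 for Pln, -0.77 to 0.28 for Hrc, -0.41 to 0.46 for S100a1 and -0.32 to 0.43 for Trdn. For Ryr2 it was -0.55 to 0.0038, and for Sln, the widest, -0.98 to 1.71.

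The same arrays were extreme for many of the genes. RVF+ 8 was lowest of its group for Atp2a2, Pln, S100a1, Ryr2, Trdn, Jph2, Casq2 and Hrc, and RVF+ 11 highest for Atp2a2, Pln, Sln, Ryr2, Trdn, Hrc and Slc8a1. In RVF, RVF 13 was lowest for 6 genes (Atp2a2, Pln, Sln, Ryr2, Trdn and Hrc) and highest for the other 3 on which it was extreme (Jph2, Casq2 and Slc8a1). Among the CON arrays no array was lowest for more than 3 genes or highest for more than 2. Averaged over the 10 genes, an array's difference from the CON mean was -1.17 in RVF+ 8, -0.74 in RVF+ 9, -0.77 in RVF+ 10, -0.29 in RVF+ 11 and -0.44 in RVF+ 12, and from -0.65 to -0.41 in RVF.

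**Figure D4:**
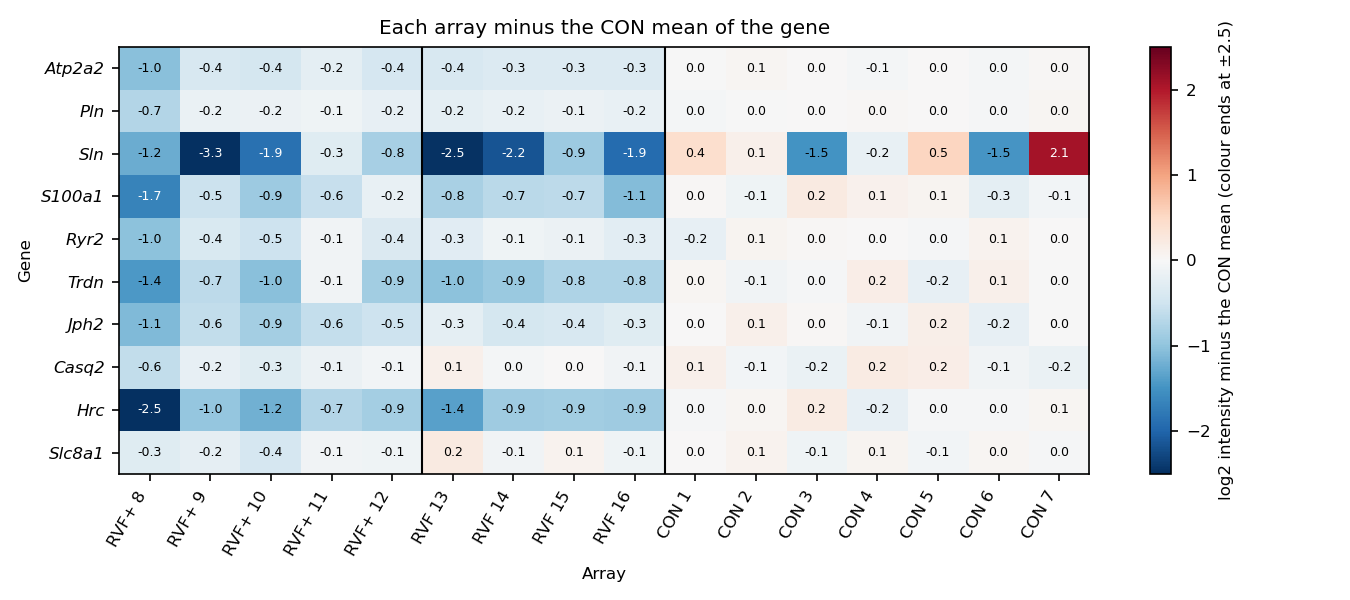
Each array's log2 intensity minus the CON mean of the gene, for the 10 genes (rows) and the RVF+, RVF and CON arrays (columns, left to right), with blue for lower and red for higher values. RVF+ 8 has the darkest column outside the Sln and Slc8a1 rows, RVF+ 11 is on average the palest among RVF+, and the Sln row varies among the CON arrays too.

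Relative to the 8 cardiomyocyte markers of the same array, a scale chosen after the data had been seen, fewer of the genes passed. On it 4 of the 10 were lower in RVF+ (3.49% of all genes were) and 3 in RVF (2.71%). None of the 10 was higher, while 58% of all genes were higher in RVF+ and 11.3% in RVF on this scale. Hrc fell by 0.88 ± 0.15 in RVF+ and by 0.80 ± 0.16 in RVF (adjusted p = 0.000293 and 0.00236), Trdn by 0.45 ± 0.13 and by 0.68 ± 0.14, and S100a1 by 0.41 ± 0.13 and by 0.61 ± 0.14. Jph2 fell in RVF+ (-0.37 ± 0.09, adjusted p = 0.00353) and had -0.15 ± 0.10 in RVF (adjusted p = 0.282). The pump gene Atp2a2 had -0.14 ± 0.08 and -0.16 ± 0.08 and did not pass (adjusted p = 0.120 and 0.188), and Ryr2 had -0.11 ± 0.09 and -0.0048 ± 0.094. The signs of Pln, Casq2 and Slc8a1 in RVF+ turned on this scale, to 0.097, 0.097 and 0.14, with 0 of these passing, and in RVF those of Pln and Casq2 turned too, to 0.0069 and 0.19, also without passing. This scale moved the median over all genes to 0.36 in RVF+ and 0.19 in RVF. Myh6, the fast myosin gene, is among the markers that fell, and with the other 7 markers Atp2a2 passed in both groups (-0.28 in RVF+, adjusted p = 0.00638, and -0.24 in RVF, adjusted p = 0.0399), Ryr2 passed in RVF+ (-0.25, adjusted p = 0.0265), and 6 genes were lower in RVF+ and 4 in RVF (5.72% and 4.44% of all genes). The balance of Atp2a2 to Pln or to Slc8a1 is the same on either scale.

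Genes whose course over the 16 arrays was nearest to that of Atp2a2 were found by the root mean square difference between genes, each set to its own CON mean, among the 8622 brighter genes. The nearest were Dctn6, a dynactin subunit (0.060 on the log2 scale), Atp5f1a of the mitochondrial ATP synthase (0.064), Slc25a4, the mitochondrial ADP/ATP carrier (0.068), Tnni3, the cardiac troponin inhibitor (0.071), and Pcmtd2 (0.072). Without RVF+ 8 the nearest were Pygm, Atp5f1a, Ckm, Ndufb3 and Dctn6, at 0.046 to 0.062. Among the 10 genes themselves Ryr2 was nearest to Atp2a2 (0.11), Casq2 and Slc8a1 were nearest to each other (0.13), and Sln was far from all others (1.14 to its nearest, Hrc).

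Other calcium genes were read from 5 lists, of which 53 of 71 genes were measured. Among regulators of the pump and proteins of the store's lumen 3 of 8 fell in RVF+ and 2 in RVF (13.6% and 8.29% of all genes). In both groups 0 of the 8 were higher (14.1% and 8.86% of all genes). Ppp1r1a, the inhibitor of the phosphatase that dephosphorylates phospholamban, fell by 0.77 ± 0.08 in RVF+ and by 0.83 ± 0.09 in RVF (adjusted p = 4.63e-06 and 7.18e-06). Dhrs7c, an enzyme of the sarcoplasmic reticulum, was 4.91-fold and 5.23-fold lower, and Ppp1r3a, which targets the phosphatase to the store, fell by 0.99 ± 0.19 in RVF+ and had -0.60 ± 0.21 in RVF (adjusted p = 0.0533). Without RVF+ 8 the RVF difference of Ppp1r3a passed (adjusted p = 0.00637). The list's median was -0.084 in RVF+ and -0.068 in RVF.

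Partners of the release channel were mixed, and their counts were near the shares of all genes. In RVF+ 3 of 17 were lower and 2 higher (13.6% and 14.1% of all genes), and in RVF 1 was lower and 2 higher (8.29% and 8.86%). Speg, a kinase of the junction, fell by 0.63 ± 0.11 in RVF+ and by 0.34 ± 0.11 in RVF, and Tmem38a, a potassium channel of the store that balances calcium release, fell by 0.92 ± 0.18 in RVF+ and had -0.57 ± 0.19 in RVF (adjusted p = 0.0507). Camk2d, the cardiac calmodulin kinase, fell by 0.28 ± 0.08 in RVF+. Fkbp1a, an immunophilin that binds ryanodine receptors, rose by 0.30 ± 0.09 in RVF+ and by 0.36 ± 0.10 in RVF, and the inositol trisphosphate receptor gene Itpr3 rose by 0.35 ± 0.11 in RVF+. Casq1, the skeletal muscle calsequestrin, rose in RVF (0.70 ± 0.23, adjusted p = 0.0457), with 1 of 4 arrays above all CON arrays. Without RVF+ 8 Camk2d did not pass in RVF+ (adjusted p = 0.0522), while the junctophilin gene Jph1 passed there as lower (adjusted p = 0.0479). In RVF, Tmem38a then passed as lower (adjusted p = 9.08e-06) and Orai1, a calcium channel of the cell membrane, as higher (adjusted p = 0.0473). That made 2 lower and 3 higher, where 11.2% of all genes were lower and 2315 of 17245 higher. The list's median was -0.026 in RVF+ and 0.024 in RVF. After quantile normalization 5 genes were lower and 3 higher in RVF+, and the share of all genes in that fit is not given.

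At the cell membrane 4 of 11 genes fell and 1 rose in RVF+ (13.6% and 14.1% of all genes). In RVF 2 fell and 1 rose (8.29% and 8.86% of all genes). Cacna1c, the pore of the L-type calcium channel, fell by 0.77 ± 0.14 in RVF+ and by 0.66 ± 0.15 in RVF, and its partner Cacna2d1 by 0.52 ± 0.09 and by 0.37 ± 0.10. Cacnb2 and the caveolin Cav3 fell in RVF+ (-0.46 ± 0.10 and -0.30 ± 0.09). Atp2b4, a calcium pump of the cell membrane, rose by 0.44 ± 0.09 in RVF+ and by 0.32 ± 0.10 in RVF. Without RVF+ 8 Cav3 did not pass (adjusted p = 0.0627). The list's median was -0.28 in RVF+ and -0.071 in RVF.

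Among mitochondrial calcium genes 2 of 6 rose and 2 fell in RVF+ (14.1% and 13.6% of all genes). In RVF 1 rose and 0 fell (8.86% and 8.29% of all genes). Slc8b1, the mitochondrial sodium-calcium exchanger, rose by 0.52 ± 0.12 in RVF+ and by 0.66 ± 0.12 in RVF, and Mcub, which dampens the mitochondrial uniporter, rose by 0.82 ± 0.19 in RVF+ and had 0.49 ± 0.20 in RVF (adjusted p = 0.107). Letm1 and Vdac2 fell in RVF+ by 0.34 ± 0.07 and by 0.34 ± 0.09. Mcub was dim, with a CON mean of 3.67, and without RVF+ 8 its RVF+ rise was 0.62. Without RVF+ 8 Mcub and Vdac2 passed in RVF (adjusted p = 0.0231 and 0.0367). The list's median was -0.035 in RVF+ and 0.079 in RVF.

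Of the other S100 genes 3 of 11 rose and 0 fell in RVF+ (14.1% and 13.6% of all genes), and likewise in RVF (8.86% and 8.29%). S100a4, a gene of fibroblasts and immune cells, was 3.12-fold higher in RVF+ and 2.55-fold higher in RVF, S100a10 1.93-fold and 1.72-fold, and S100a11 1.80-fold and 1.81-fold. Without RVF+ 8 S100a4 was 2.31-fold higher in RVF+, less than in RVF, and S100a11 did not pass in RVF+ (adjusted p = 0.0558). The list's median was 0.24 in RVF+ and 0.20 in RVF. The macrophage and fibroblast markers given above were higher in the same groups, and their part in these rises was not tested.

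**Figure D5:**
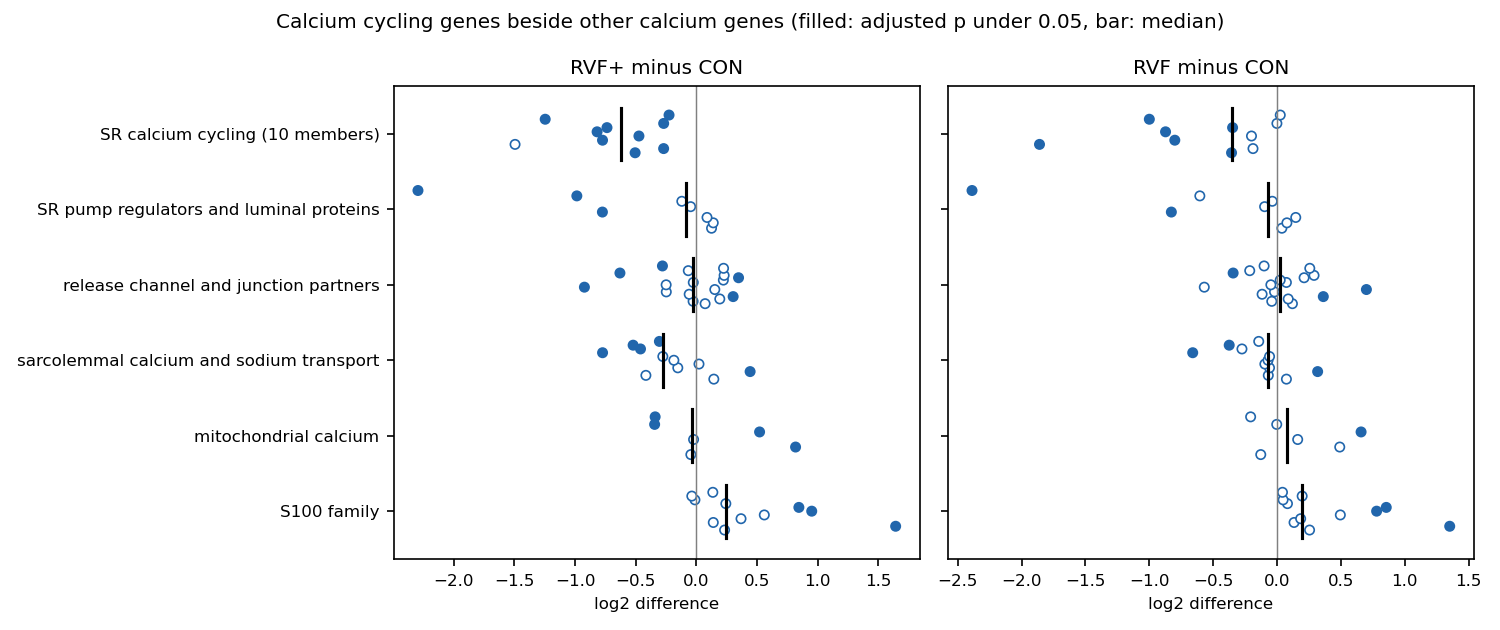
Log2 difference of the 10 calcium cycling genes and of 5 lists of other calcium genes in RVF+ minus CON (left) and RVF minus CON (right), 1 point a gene, filled where the adjusted p passed, with the list median as a bar. The median of the 10 genes is -0.62 and -0.35, while the other lists have medians between -0.28 and 0.24 in RVF+ and between -0.071 and 0.20 in RVF.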

How the data were processed

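RNA from right ventricular wall was hybridised to 16 Affymetrix arrays, from 500 ng of total RNA per the labels' protocols. The authors deposited linear intensity values, 1 for each probe set on each array, for which the submitters' processing notes name RMA. The sources used here state neither its version nor a genome build. Values were converted to log2, so that 1 is a 2-fold difference. RMA compresses differences of dim probe sets, and precision is set by how many arrays each group has. Of 29214 probe sets 18644 had exactly 1 symbol, and the brightest per gene was kept, leaving 17245 genes. Group means were fitted to all 16 arrays with limma 3.58.1 in R 4.3.3, and p-values adjusted over all genes (Benjamini-Hochberg, two-sided, threshold 0.05). Balances were compared by exact permutation tests. The limma fit was also run on simulated data, with independent normal noise for each gene and the same spread in all groups. Those data held no array that stood apart, so they do not bear on the effect of RVF+ 8. The genes, lists and tests were chosen with earlier results of these data known. Named are the 10 genes, the called genes of each list, the 5 genes nearest to Atp2a2 and the markers. Endothelial, smooth muscle, skeletal muscle and red cell markers were also read: 0, 3, 2 and 2 genes were higher and 0, 0, 1 and 0 lower in RVF+, and 0, 2, 1 and 0 higher and 0 lower in RVF. Over all genes 14.1% were higher and 13.6% lower in RVF+, and 8.86% and 8.29% in RVF. Gene names and promoters are from RefSeq (GRCr8).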

Additional observations from a re-analysis of the deposited data

Results flagged for a closer look

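In 36 groups (10 genes and 2 balances in each of 3 groups) 5 values lay far from the rest of their group by Dixon's criterion, which chance alone meets in about 1 of 20 groups. Atp2a2 in RVF+ 8 was 11.42, where the other RVF+ arrays ran from 12.03 to 12.22. Pln in RVF+ 8 was 12.00, against 12.53 to 12.62 in the others. Hrc in RVF+ 8 was 7.15, against 8.44 to 8.91. Hrc in RVF 13 was 8.27, where the other RVF arrays ran from 8.75 to 8.77. Ryr2 in CON 1 was 11.02, where the other CON arrays ran from 11.19 to 11.30. Of these 5 values 3 belong to RVF+ 8, the array that stood apart over all genes.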

How the results depend on the processing

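No paired analysis was possible because the labels give no pairing, batch or date. Of the 10 genes, 9 were called in RVF+ and 6 in RVF. Leaving out 1 array of the groups compared gave 7 to 10 in RVF+ and 3 to 6 in RVF (3 without CON 2, RVF 14 or RVF 16), and 0 in RVF+ against RVF. Requiring a 1.2-fold minimum left 3 in RVF+ and 1 in RVF. Shares of all genes are not given for this minimum or for leaving out arrays other than RVF+ 8. A general loss of calls therefore cannot be told from a loss among the 10 genes. With the 8 cardiomyocyte markers as scale, chosen after seeing the data, 4 and 3 were called, and with 7 markers 6 and 4. The minimum fold asks for more by construction; otherwise the cause was not tested. Among the called differences of single genes, 4 turned sign, all in RVF+ with that scale: Casq2 (0.097), Pln (0.097) and Slc8a1 (0.14, or 0.0023 with 7 markers). Differences that had not passed turned sign too, under 1 or more alternatives and without passing: Pln, Casq2 and Slc8a1 in RVF (up to 0.0069 for Pln and 0.19 for Casq2, and down to -0.044 for Slc8a1), and Atp2a2, Pln, Sln, S100a1, Trdn and Hrc between RVF+ and RVF. The Atp2a2 to Pln balance ran from -0.26 to -0.21 in RVF+, -0.18 to -0.16 in RVF and -0.092 to -0.046 between them when 1 array was left out, passing between RVF+ and RVF only without RVF+ 11. The Atp2a2 to Slc8a1 balance ran from -0.35 to -0.16, -0.43 to -0.30 and 0.017 to 0.22. The correlation of Sln with Myl7 ran from -0.0061 to 0.446 without 1 CON array. The alternatives to the fit (quantile normalization, centring, a filter on dim genes, all probe sets, their mean, the compared groups only, trend, robust moderation, array weights) changed no count of the 10 genes by over 1.5 times.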
